A study of Mus musculus with 12 samples.

Results

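The calcitonin family of neuropeptides and hormones and its receptors were examined in spinal motor neurons (SMNs) and in the posterior horn of the mouse spinal cord. The family was taken as 10 genes, matched by symbol: the ligand genes Calca, Calcb, Adm and Iapp, the receptor genes Calcr and Calcrl, the receptor activity-modifying protein genes Ramp1, Ramp2 and Ramp3, and Crcp. A total of 8 of the 10 had a gene-level row of their own, 9 rows in all among the 24343 rows with 1 symbol (20261 symbols), and all 10 were measured by 96 of 1195555 exon-level probesets. SMNs came from the anterior horn of the cervical cord of adult, untreated, male C57Bl/6 mice (C57BL/6J, 6-week-old, in the study's methods), and were cut by laser as large cells from frozen sections. The posterior horn samples were whole pieces of dorsal horn from mice of the same kind, so they held neurons, glia and vessels together. The labels of these samples read posterior column. Each group had 3 arrays and RNA from 3 mice. Whether the arrays of a group are separate mice is not stated in the labels, so p-values measure only the spread between these samples, which may be technical.

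The peptides of the family act on receptors of the G protein-coupled class, and most of these couple to Gs and raise cAMP. Calca makes calcitonin or alpha calcitonin gene-related peptide (CGRP) from 1 gene by choice of the terminal exons, and Calcb makes beta CGRP. Calcrl pairs with Ramp1 to form the CGRP receptor and with Ramp2 or Ramp3 to form adrenomedullin receptors, whereas Calcr binds calcitonin alone and amylin when paired with a Ramp. CGRP is well known in motor neurons, where it is released at the neuromuscular junction, and in primary sensory axons that end in the posterior horn, whose cell bodies lie outside the cord.

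The samples were first checked by marker genes on the gene-level scale. Of 6 motor neuron markers, 5 were higher in SMNs (of all rows tested, 13.8% were higher and 12.6% lower). The median log2 fold change of the 6 was 6.64, and their summed intensity was 16900 to 17800 in SMN arrays and 374.7 to 482.2 in posterior horn arrays. Mnx1 was the exception, at 134.9, 172.3 and 176.6 in SMN arrays and 212.9, 237.5 and 237.1 in posterior horn arrays (log2 fold change -0.51, limma adjusted p = 0.0709). With exon-level medians its direction turned, and all 6 were higher in SMNs (Mnx1 log2 fold change 1.02, limma adjusted p = 0.00382). Chat, which makes acetylcholine, was at 1842, 1760 and 1749 in SMN arrays and 14.0, 11.4 and 12.2 in posterior horn arrays. Slc18a3, the vesicular acetylcholine transporter, was at 3933, 4189 and 3905 in SMN arrays and 79.2, 10.6 and 30.3 in posterior horn arrays. Of the glial markers, 6 of 7 astrocyte genes, 6 of 6 measured oligodendrocyte genes and 5 of 6 microglial genes were lower in SMNs, and S100b was 2.58-fold higher. Slc1a3 and Aldh1l1 of astrocytes were 6.90-fold and 4.16-fold lower, Mobp and Mbp of myelin each 2.06-fold lower, and Itgam and Csf1r of microglia 4.89-fold and 3.50-fold lower. With exon-level medians 4 of the 7 astrocyte, 5 of the 6 oligodendrocyte and 4 of the 6 microglial genes were lower. The calls of Aldh1l1, Gja1, Mbp and P2ry12 were lost (limma adjusted p = 0.0716, 0.151, 0.123 and 0.125). The median intensity of an array over all gene-level rows, named or not, lay between 32.9 and 35.2. Over the rows with 1 symbol it lay between 132.8 and 144.45. At the exon level the median of all probesets lay between 4.49 and 4.52 on the log2 scale. Array medians named below are those of all rows or probesets. In bulk samples such as these, fewer cells of a type and less RNA per cell cannot be told apart.

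At the gene level, 1 of the 8 measured members was higher in SMNs (13.8% of all rows tested were), 2 were lower (12.6% of all rows) and 5 did not pass the test. The groups did not overlap for 4 of the 8, against 45.6% of all rows. The median log2 fold change of the 8 was 0.22, and that of all rows tested was 0.0205. At the exon level, with the median of the probesets of each gene, 2 of 10 members were higher (9.86% of all symbols) and 2 were lower (6.91%). Without posterior horn array 1 the gene-level count of higher members was 2, and without SMN array 2 that of lower members was 1. The members that passed fell on both sides: the CGRP ligands were high in SMNs, and Calcrl, with Ramp1 or Ramp3 according to the table, was low.

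**Figure D1:**
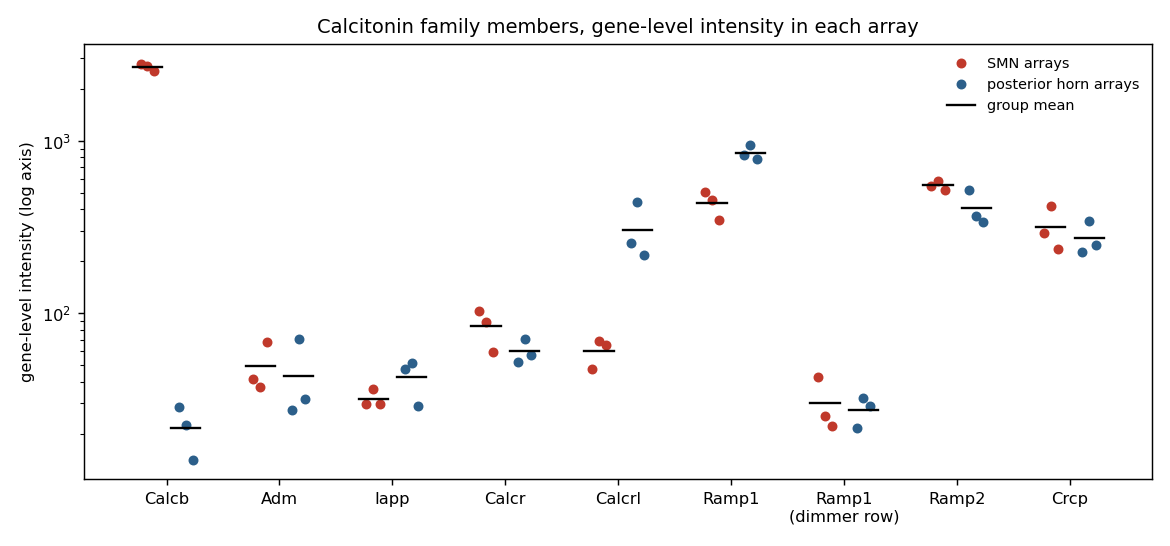
Gene-level intensity (log axis) of each member with its own row in the 3 SMN arrays (red) and the 3 posterior horn arrays (blue), with the group mean as a bar. Calcb was at 2520 or above in the SMN arrays and at 28.4 or below in the posterior horn arrays, whereas the SMN arrays lay below the posterior horn arrays for Calcrl and for the brighter Ramp1 row; heights of different genes are not to be compared.

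Among the ligands, Calcb showed the widest gap of the 8 members measured at the gene level. Its intensity was 2793, 2705 and 2520 in SMN arrays, against 28.4, 22.5 and 14.1 in posterior horn arrays. All posterior horn values lay below the median of their arrays, and none came near an SMN value. The fitted log2 fold change was 6.93 (SE 0.26, limma adjusted p = 0.000208), a 122-fold difference that rests on dim posterior horn values. With each of those values raised to the median of its array, the difference on this row was 75.7-fold. The size also depended on the summary: with 16 added before the log2, which damps dim values, the log2 fold change was 6.17, and with exon-level medians it was 3.21, or 9.22-fold.

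Calca had no gene-level row that names it alone, and was read from its 8 exon-level probesets. Their median was 9.08, 9.13 and 9.13 on the log2 scale in SMN arrays and 6.62, 6.92 and 6.85 in posterior horn arrays. The SMN arrays lay closer to each other than the posterior horn arrays did, and well above all of them. Calca was thus 4.97-fold higher in SMNs by this measure (log2 fold change 2.31, SE 0.15, limma adjusted p = 0.000122). In the posterior horn arrays too, these medians were above the median of all probesets.

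Calcb read in the same way had medians of 9.10, 9.04 and 8.81 in SMN arrays and 5.83, 5.81 and 5.69 in posterior horn arrays (log2 fold change 3.21, SE 0.15, limma adjusted p = 4.52e-05). Within each array, the Calca median minus the Calcb median was -0.024, 0.083 and 0.32 in SMNs and 0.79, 1.11 and 1.16 in the posterior horn. All SMN arrays lay below all posterior horn arrays in this difference. The log2 fold change of Calca was smaller than that of Calcb by 0.89 (difference -0.89). The medians took in 3 of 8 Calca probesets and 1 of 6 Calcb probesets that did not pass on their own. The part of these probesets in the difference was not tested. An exact permutation test of the arrays, two-sided, gave p = 0.1, which is the lowest value possible with 3 arrays per group. With the brightest probeset of each gene in place of the median, a choice made after seeing the data, the difference was -2.55. Both genes were higher in SMNs in either reading.

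The CGRP genes lie next to each other on chromosome 7 in the RefSeq annotation of GRCm38.p6, with 0 protein-coding genes between them. The stretch before the Calca start is shown because the receptors of the family signal through cAMP and because cAMP is known to raise Calca transcription in cultured cells (RefSeq, GRCm38.p6, chr7:114636358-114636607, minus strand, the 250 bases before the start). Capitals mark a TGACG, the core letters of the cAMP response element, 65 bases before the start.
Calca promoter: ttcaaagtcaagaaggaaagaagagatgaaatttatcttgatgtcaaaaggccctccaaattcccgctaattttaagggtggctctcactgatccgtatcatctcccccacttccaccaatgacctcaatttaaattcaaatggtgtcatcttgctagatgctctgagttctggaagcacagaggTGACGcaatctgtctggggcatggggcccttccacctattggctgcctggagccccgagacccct
Both strands were searched for TGACG and for the whole element TGACGTCA, which contains it. Among 32851 RefSeq promoter windows, 17.8% held TGACG and 1.55% held TGACGTCA. Of 8 windows of 7 members, 3 held TGACG, those of Calca and Calcr, and 0 held TGACGTCA. Calcb, Ramp2 and Crcp had no window among these, so their promoters were not searched. These matches describe letters in the windows, not binding.

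Single probesets of Calca and Calcb did not share 1 fold change. Of 8 Calca probesets, 5 were higher in SMNs, and of 6 Calcb probesets, 5 were (0.57% of all probesets were higher). Probeset 4534366 of Calca had values of 12.9, 12.8 and 12.9 on the log2 scale in SMN arrays and 8.76, 8.05 and 9.49 in posterior horn arrays, a 17.3-fold difference (limma adjusted p = 0.00731). Probeset 4907544 had 11.4, 11.3 and 11.2 in SMN arrays and 6.95, 7.11 and 7.33 in posterior horn arrays, a 17.9-fold difference (limma adjusted p = 0.00144). These were the widest gaps among the Calca probesets. The other 3 that passed, 5243750, 5428392 and 4489256, were 6.46-fold, 4.81-fold and 2.56-fold higher in SMNs. Leaving out SMN array 1 left 3 Calca and 2 Calcb probesets past the threshold. Leaving out SMN array 2 left 3 of Calca, and leaving out SMN array 3 left 3 of Calcb.

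The remaining 3 Calca probesets, 4846081, 5062217 and 5235301, did not pass, with log2 fold changes of 0.83, 0.18 and 0.10. Their values ran between 2.94 and 5.28 in SMN arrays and between 2.50 and 5.41 in posterior horn arrays, from well below to somewhat above the array medians. Annotation given here does not say which Calca probesets read the calcitonin exon and which the CGRP exons. The low probesets are therefore not assigned to either product. The fold changes of the 8 differed from each other (diffSplice in limma, adjusted p = 5.12e-09).

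Probeset 4637202 of Calcb had 12.7, 12.6 and 12.5 in SMN arrays and 6.16, 5.74 and 5.85 in posterior horn arrays, a 101.3-fold difference (limma adjusted p = 0.000653). This was the widest gap among the 96 probesets of the family. Probesets 4421357, 4365571, 4803488 and 5616663 of Calcb were 21.7-fold, 8.81-fold, 8.04-fold and 7.39-fold higher in SMNs. Posterior horn values of 4421357 were partly below the array median, and raised to it they gave 14.4-fold. Only 4667838 did not pass, with 5.61, 6.55 and 6.06 in SMN arrays and 4.36, 5.64 and 5.53 in posterior horn arrays. The Calcb fold changes also differed from each other (diffSplice in limma, adjusted p = 2.66e-09). Such differences were common on these arrays: 21.4% of all genes with several probesets passed this test, and 6 of the 10 members did, Calca, Calcb, Calcrl, Ramp3, Ramp1 and Calcr. Those of Ramp1 and Calcr were lost in several fits without 1 array (diffSplice, adjusted p up to 0.107 and 0.432). The part of dim signal in these differences was not tested.

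**Figure D2:**
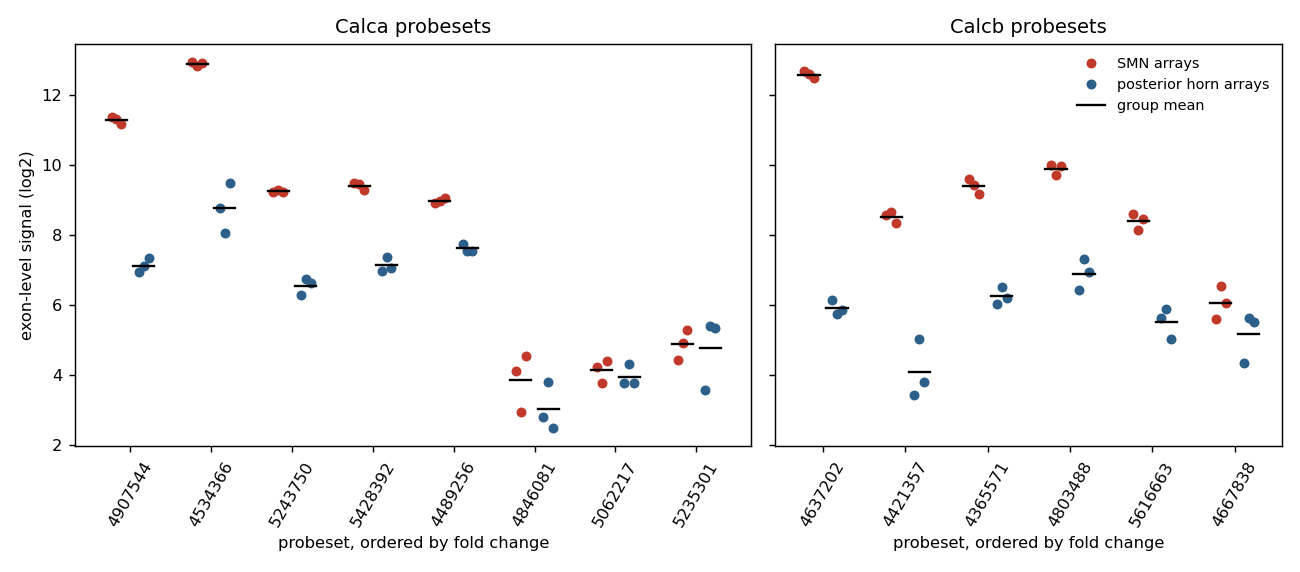
Exon-level log2 signal of each Calca probeset (left) and Calcb probeset (right) in the 3 SMN arrays (red) and the 3 posterior horn arrays (blue), ordered by fold change, with group means as bars. In 5 probesets of each gene the SMN arrays lay above all posterior horn arrays (10.8% of all probesets did), and in 3 Calca probesets and 1 Calcb probeset the groups overlapped.

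Markers of primary sensory neurons, whose axons in the posterior horn are also known for CGRP, were then read. At the gene level, 0 of 7 measured passed in either direction by limma and 0 by the methods' t-test, with 2 and 1 at an unadjusted p under 0.05, and their median log2 fold change was -0.19. The summed intensity of these 7 was 614.5 to 769 in SMN arrays and 662.5 to 713.7 in posterior horn arrays. The brightest were P2rx3, an ATP-gated channel, at 203.9, 118.6 and 178.7 in SMN arrays and 199.6, 69.2 and 90.5 in posterior horn arrays, and Avil, an actin-binding protein, at 121.4, 113.7 and 179.2 in SMN arrays and 160.9, 194.1 and 181.7 in posterior horn arrays. No gene-level row with 1 symbol was listed at 0, so these values do not show whether the 7 were present. With exon-level medians 1 of the 7 passed: Tac1, which encodes substance P and is also made by posterior horn neurons, was lower in SMNs (log2 fold change -5.13, limma adjusted p = 4.52e-05).

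The genes whose profile over the 6 arrays was most like that of Calcb at the gene level were Ret, Cacna2d3, Nptn, Cpne6 and Ilvbl, with Pearson r of 0.9994 to 0.9997 among 20260 symbols. Ret, a receptor tyrosine kinase for GDNF family ligands, was 9.25-fold higher in SMNs. For Calca at the exon level the most alike were Spp1, Nefl, Tubb2c, Cast and Epb4.1l3 (r of 0.9989 to 0.9996 among 22344 symbols), and for Calcb at that level they were Pappa, Jak1, Ppia, Spna2 and Lgr5. Spp1, which encodes osteopontin, was 14.6-fold higher in SMNs. Calca and Calcb correlated with each other at r = 0.9934, and Calcb ranked 84 and Calca 140 on the list of the other. Over 6 arrays in 2 groups, any gene whose gap is wide relative to its replicate spread has a high r, whatever its fold change. Nptn and Ilvbl had much smaller fold changes than Ret at a similar r, as did Ppia beside Pappa at the exon level. The r values therefore describe the split between the groups, not the size of the gap.

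The other ligands gave no such gap. Adm, which encodes the vasodilator adrenomedullin, was at 41.7, 37.1 and 68.4 in SMN arrays and 27.3, 70.4 and 31.8 in posterior horn arrays. The highest and the lowest of the 6 values were both from the posterior horn. Its log2 fold change was 0.26 (95% interval -0.75 to 1.26, limma adjusted p = 0.686). Iapp, the gene of amylin, a hormone of pancreatic beta cells, was at 29.6, 36.3 and 29.5 in SMN arrays and 47.7, 51.7 and 28.9 in posterior horn arrays. These intensities were around the median of all rows, named or not, and below that of rows with 1 symbol (132.8 to 144.45). The groups overlapped (log2 fold change -0.38, 95% interval -0.999 to 0.24, limma adjusted p = 0.321). Of the 5 Adm and 4 Iapp probesets, 0 passed with limma, and 1 of each gene had an unadjusted p under 0.05 (0.0174 for Adm and 0.026 for Iapp). Adm2, the ligand adrenomedullin 2, and the receptors Gpr182 and Ackr3, reported to bind adrenomedullin, did not pass either, with a median log2 fold change of -0.17 (0 of 3 by limma and by the methods' t-test, also unadjusted).

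Of the receptors, Calcrl was lower in SMNs. Its intensity was 47.3, 69.1 and 64.9 in SMN arrays and 254.5, 442.8 and 215.9 in posterior horn arrays. The lowest posterior horn value was above the highest SMN value by a wide margin. The difference was 4.80-fold (log2 fold change -2.26, SE 0.31, limma adjusted p = 0.00545). In a fit over all rows of the table, named or not, the same fold change had an adjusted p of 0.0609.

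At the exon level 7 of 22 Calcrl probesets were lower in SMNs (0.654% of all probesets were), 0 were higher, and in 12 of 22 all SMN arrays lay below all posterior horn arrays (8.7% of all probesets did). Their log2 fold changes ran from -3.47 to 0.55. Probeset 5452277 had 3.51, 3.96 and 2.59 on the log2 scale in SMN arrays and 6.22, 7.03 and 7.20 in posterior horn arrays, 11.1-fold lower in SMNs (limma adjusted p = 0.0185). Its SMN values were all below the array median, and with these raised to it the difference was 2.32 on the log2 scale. Probeset 4479341 had 7.14, 6.73 and 6.53 in SMN arrays and 9.69, 9.33 and 10.01 in posterior horn arrays, 7.35-fold lower in SMNs (limma adjusted p = 0.00882). The median of the 22 gave a log2 fold change of -1.81 (limma adjusted p = 0.00239). The fold changes differed among the probesets (diffSplice in limma, adjusted p = 7.86e-05). The count of 7 was 0 without SMN array 2, and 1 to 4 without any other single array.

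Calcrl is known in endothelium, and most markers of vessels were lower in SMNs as well. So were most glial markers, with median log2 fold changes of -1.52 for astrocytes, -0.92 for oligodendrocytes and -1.56 for microglia. Of 10 endothelial markers, 8 were lower in SMNs and 0 higher, against 12.6% and 13.8% of all rows. Their median log2 fold change was -1.38, and their summed intensity was 1047 to 1380 in SMN arrays and 3456 to 4331 in posterior horn arrays. Tek, the angiopoietin receptor, was 4.97-fold lower and Slco1a4, a transporter of the blood-brain barrier, 4.23-fold lower. Of 8 mural markers, 5 were lower and 0 higher, with a median of -1.06 and a summed intensity of 2105 to 2212 in SMN arrays and 5174 to 5868 in posterior horn arrays. Acta2, smooth muscle actin, was 6.54-fold lower and Abcc9, a potassium channel subunit of pericytes, 4.60-fold lower. With exon-level medians 5 of the 10 endothelial and 4 of the 8 mural markers were lower, with 0 higher, and the log2 fold change of Abcc9 was smaller in size (-0.70, limma adjusted p = 0.0193). The part of these markers in the Calcrl result was not tested.

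Calcr, the calcitonin receptor, was at 103.3, 88.6 and 59.8 in SMN arrays and 51.9, 70.9 and 57.2 in posterior horn arrays. SMN arrays 1 and 2 were the highest of the 6, and SMN array 3 lay within the posterior horn range. Its log2 fold change was 0.45 (95% interval -0.15 to 1.06, limma adjusted p = 0.229), and with exon-level medians it was -0.32. A single probeset of 20, 4474312, was lower in SMNs, with 3.26, 2.75 and 2.16 in SMN arrays and 4.92, 4.60 and 4.68 in posterior horn arrays (limma adjusted p = 0.0374). It did not pass when any 1 array was left out.

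Of the receptor activity-modifying proteins, Ramp1, which gives Calcrl its affinity for CGRP, had a pair of gene-level rows that differed. The brighter row was at 505.6, 454.4 and 348.3 in SMN arrays and 831.4, 941.3 and 787.2 in posterior horn arrays. The groups did not overlap, and the level in SMNs was 1.97-fold lower (log2 fold change -0.98, SE 0.19, limma adjusted p = 0.0154). The dimmer row was at 42.5, 25.4 and 22.3 in SMN arrays and 21.5, 32.1 and 29.0 in posterior horn arrays, and did not pass (log2 fold change 0.08, limma adjusted p = 0.855). The call of the brighter row was lost without SMN array 2 (adjusted p = 0.0518) and over all rows of the table (adjusted p = 0.144). With exon-level medians the log2 fold change of Ramp1 was -0.064 (limma adjusted p = 0.917).

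The 9 Ramp1 probesets were likewise mixed. In 4 of them all SMN arrays lay below all posterior horn arrays, in 1 above (8.7% and 10.8% of all probesets), and 0 passed with limma, although 3 had an unadjusted p under 0.05. Their log2 fold changes ran from -2.04 to 0.42 and differed from each other (diffSplice in limma, adjusted p = 0.00898). Probeset 4697475 had 9.56, 9.52 and 9.20 in SMN arrays and 10.2, 10.2 and 10.2 in posterior horn arrays, with a log2 fold change of -0.76 (limma adjusted p = 0.162).

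Ramp2, which makes Calcrl an adrenomedullin receptor, was at 543.8, 587.5 and 519.8 in SMN arrays and 519.7, 365.1 and 337.5 in posterior horn arrays. The groups did not overlap, but posterior horn array 1 came level with the lowest SMN array. The log2 fold change was 0.46 (95% interval -0.043 to 0.96, limma adjusted p = 0.152). Without posterior horn array 1 it was 0.65 and passed (adjusted p = 0.041). Of its 9 probesets 0 passed with limma, and 1 had an unadjusted p under 0.05, at 0.021.

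Ramp3, the third of these proteins and likewise a partner of Calcrl for adrenomedullin, shared its gene-level row with Nacad, so it was read from 5 probesets. Their median was 5.94, 5.71 and 5.71 on the log2 scale in SMN arrays and 6.71, 6.59 and 7.38 in posterior horn arrays. No SMN array reached the lowest posterior horn array. Ramp3 was 2.15-fold lower in SMNs (log2 fold change -1.11, SE 0.22, limma adjusted p = 0.0145). The call was lost without SMN array 2 (adjusted p = 0.0532) or SMN array 3 (0.0536), and with the methods' t-test (0.0815).

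Of the Ramp3 probesets only 4445709 passed, with 6.33, 6.40 and 6.43 in SMN arrays and 7.63, 8.15 and 7.88 in posterior horn arrays (log2 fold change -1.50, limma adjusted p = 0.0305). In 3 of 5 the SMN arrays lay below all posterior horn arrays (8.7% of all probesets did), and in 1, 5489402, above them at 7.16, 7.41 and 6.86 against 6.71, 6.59 and 6.83. The spread among the 5 passed its test (diffSplice in limma, adjusted p = 1e-04). The row that Ramp3 shares with Nacad, which cannot be assigned to either gene, was at 88.9, 93.3 and 100.7 in SMN arrays and 142.4, 167.2 and 189.1 in posterior horn arrays (1.75-fold lower in SMNs, limma adjusted p = 0.0181).

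**Figure D3:**
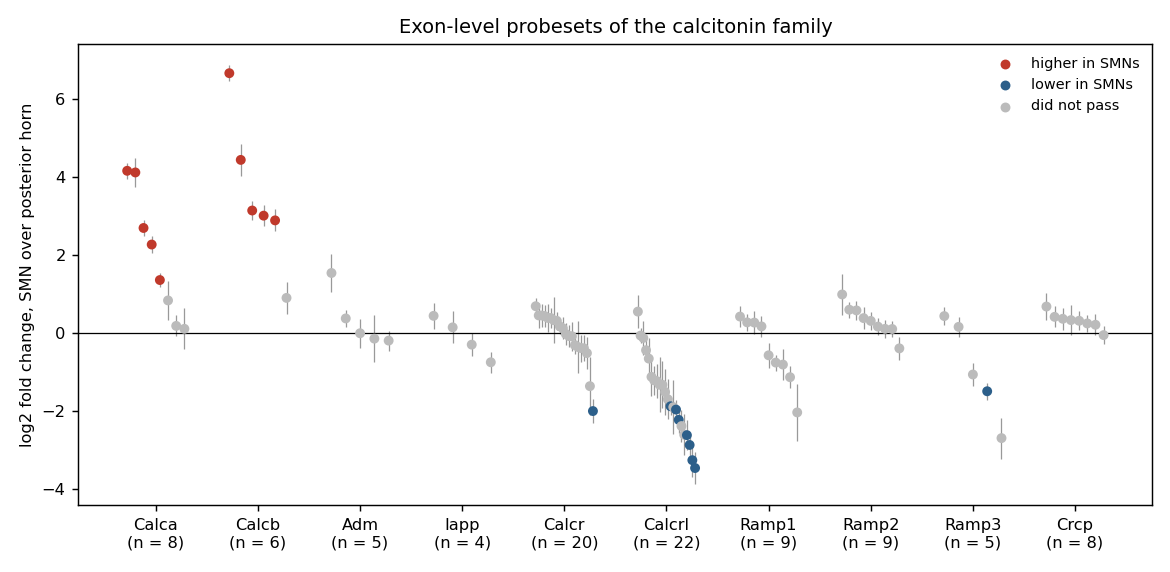
Log2 fold change (SMN over posterior horn) of each of the 96 exon-level probesets of the family, by gene, with the standard error as a line; red points passed as higher in SMNs, blue as lower, and grey did not pass. All 10 red points belong to Calca and Calcb, and of the 9 blue points 7 belong to Calcrl, 1 to Calcr and 1 to Ramp3.

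Crcp encodes a protein first named for its role in CGRP receptor signalling and also known as a subunit of RNA polymerase III. It was at 293.2, 420.5 and 235.2 in SMN arrays and 227.4, 343.8 and 248.3 in posterior horn arrays. The groups overlapped, and array 2 was the brightest of each group. The log2 fold change was 0.19 (95% interval -0.48 to 0.86, limma adjusted p = 0.645), and 0 of its 8 probesets passed with limma, with 0 at an unadjusted p under 0.05. The test of differences among the 8 did not pass (diffSplice in limma, adjusted p = 0.93). Of 9 other subunit genes of RNA polymerase III, 5 were higher in SMNs and 0 lower (13.8% and 12.6% of all rows were). Their median log2 fold change was 0.87. Polr3g, a subunit of the form of the enzyme found in stem cells, had 2865, 2713 and 2884 in SMN arrays and 196.8, 162.3 and 233.3 in posterior horn arrays (14.4-fold higher, limma adjusted p = 0.000278). Polr3e was 3.59-fold higher, and the other 3 that passed were Polr3a, Polr3b and Polr3k. In the fit over all rows, named or not, 2 of the 9 passed, and the share of all rows that passed in it is not given. With exon-level medians 3 of the 9 passed, Polr3g, Polr3b and Polr3k. The log2 fold change of Polr3g was then 2.43, and those of Polr3e and Polr3a were 0.52 and 0.48 (limma adjusted p = 0.0863 and 0.111).

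Of 18 genes of Gs and cAMP signalling, which act after these receptors, 2 were higher in SMNs (13.8% of all rows were), 5 were lower (12.6% of all rows) and 11 did not pass, with a median log2 fold change of 0.077. Adcy1, a calmodulin-stimulated adenylyl cyclase, was at 412.7, 366.7 and 366.3 in SMN arrays and 2138, 1877 and 2038 in posterior horn arrays, 5.27-fold lower in SMNs (limma adjusted p = 0.000547). With exon-level medians its log2 fold change was -0.89 (limma adjusted p = 0.00701). Arrb1, a beta-arrestin, was 2.52-fold lower, and the others that passed as lower were Adcy5, Adcy8 and Creb1. Prkaca, a catalytic subunit of protein kinase A, was 2.18-fold higher and Prkar2b, a regulatory subunit, 1.70-fold higher. The call of Prkar2b was lost without any 1 of the SMN arrays (adjusted p = 0.0585, 0.0737 and 0.0754), without posterior horn array 2 (0.0535), with a replicate block (0.0661) and over all rows (0.183). Gnas, which encodes Gs alpha, did not pass (log2 fold change -0.32, limma adjusted p = 0.126). The count of 7 that passed was 4 without SMN array 1, 4 without SMN array 2 and 3 without SMN array 3, 1 over all rows of the table, and 4 with exon-level medians, where the calls of Adcy5, Adcy8 and Creb1 were lost.

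Calcitonin family peptides are cut from precursors in dense-core vesicles. Of 11 measured genes of peptide processing and dense-core vesicles, 2 were higher in SMNs (13.8% of all rows were), 5 were lower (12.6% of all rows) and 4 did not pass. Their median log2 fold change was -0.31. Pcsk1, a prohormone convertase, was at 126.9, 208.3 and 119.5 in SMN arrays and 1224, 1228 and 745.8 in posterior horn arrays, 7.04-fold lower in SMNs (limma adjusted p = 0.00283) and by a log2 fold change of -2.12 with exon-level medians. Scg2, secretogranin II, was 2.03-fold lower, and the others that passed as lower were Cpe, Scg5 and Cadps2. Chga, chromogranin A, was 1.97-fold higher and Cadps, a priming factor of dense-core vesicles, 1.78-fold higher. Pam, which amidates the end of CGRP and calcitonin, was below the array median in every array and did not pass (limma adjusted p = 0.856). With exon-level medians Pam was lower in SMNs (log2 fold change -1.06, limma adjusted p = 0.00824). The call of Cpe was lost in that reading (limma adjusted p = 0.057). The count of 7 that passed was 4 without any 1 of the SMN arrays, and 1 over all rows of the table.

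Of 4 peptide-degrading enzyme genes, Mme, or neprilysin, was 10.1-fold lower in SMNs, with 83.0, 169.1 and 144.4 in SMN arrays and 1425, 1327 and 1124 in posterior horn arrays (limma adjusted p = 0.00148). Ece2 was 2.01-fold and Ide, the insulin-degrading enzyme, 1.76-fold higher, and both calls were lost in several settings, among them each fit without 1 SMN array (highest adjusted p over all settings 0.154 and 0.205).

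The choice between the calcitonin and CGRP ends of Calca is known to respond to RNA-binding proteins, and 7 such genes were followed. Of these, 2 were higher in SMNs (13.8% of all rows were), 3 were lower (12.6% of all rows) and 2 did not pass, with a median log2 fold change of -0.79. Elavl2, a neuronal Hu protein, was at 2588, 2487 and 2572 in SMN arrays and 1216, 923.9 and 1006 in posterior horn arrays, 2.45-fold higher (limma adjusted p = 0.00419). Elavl4, another Hu protein, was 2.11-fold higher. Tra2b was 2.63-fold lower in SMNs and Rbfox2 1.84-fold lower, and Rbfox1 was the third that passed as lower. A total of 4 of the 7 had no exon-level probeset under their symbol, and in the fit over all rows, named or not, 0 of the 7 passed.

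**Figure D4:**
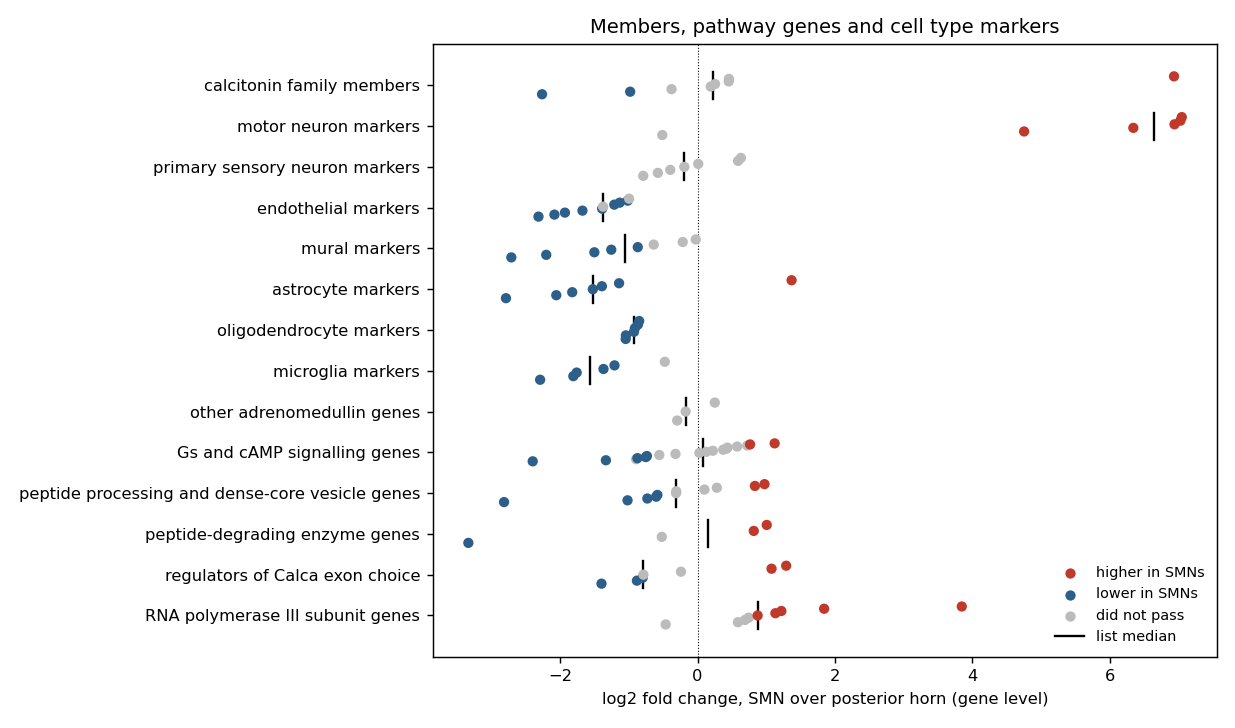
Gene-level log2 fold change (SMN over posterior horn) of the members, the pathway lists and the cell type markers, 1 point per gene and a bar at the list median; red passed as higher in SMNs, blue as lower, grey did not pass. Motor neuron markers lay far to the right at a median of 6.64, endothelial and mural markers to the left at -1.38 and -1.06, and Calcb was the only member beyond 1 on the right.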

How the data were processed

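Laser-dissected SMNs and posterior horn areas were each hybridized to 3 arrays. The authors deposited gene-level values as linear intensity and exon-level values as log2, both made with Affymetrix Expression Console 1.3.1.187. How the array values were background-corrected and summarized, and on which genome build, is not given in the sources used here. Since array medians were alike, nothing was normalized again. A value of 1 was added to each gene-level intensity before the log2 was taken.

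Groups were compared by lmFit and eBayes of limma 3.58.1, run in R 4.3.3, with two-sided p-values adjusted by Benjamini-Hochberg and a threshold of 0.05. The fit ran over the 24343 gene-level rows with 1 symbol, over all 1195555 exon-level probesets, and over the median of the probesets of each of 22345 symbols. Differences in fold change among the probesets of a gene were tested with diffSplice over 21412 genes. The scripts were tested on simulated data. For a symbol with several gene-level rows, the brightest was used. The tables used here give no detection flags. For some wide gaps, values of the dimmer group below the array median were also raised to it, a choice made after the values were seen. Platform annotation named the rows. A difference of Calca from Calcb had been planned at the gene level. No gene-level row names Calca alone, so exon-level medians were used.

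The members and the lists were chosen with earlier results of these data known. Named were every member, in each list the 2 genes that rose most and the 2 that fell most among those past the threshold (or, with none past it, its 2 brightest genes), and the 5 genes most alike to Calca or Calcb. Other list genes are named to complete a count or for their role, and were chosen after their values were seen. Same-numbered arrays did not deviate together (correlations of 0.0342, -0.00754 and 0.0212), so numbers were not treated as pairs. Alternatives were another normalization, filters on dim rows, other values added before the log2, a variance trend, the methods' t-test and unadjusted p-values. Further alternatives were a replicate block, all rows, 1 row per symbol, exon-level medians and leaving out each array. The RNA-seq libraries that the study also made were not used here.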

Additional observations from a re-analysis of the deposited data

How the results depend on the processing

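Of the settings tried on single genes, 1015 kept direction and side of the threshold, 44 lost the call, 1 gained it, 10 turned the direction, and 25 were probeset counts of single genes that moved. Several settings changed only the test or the rows fitted, so direction could not turn in them, and unadjusted p-values could not lose a call. The count that kept both is therefore partly fixed in advance. Counts that moved are grouped here by setting, and the cause of these moves was not tested. Over all rows of the table, 0 members were lower in SMNs, and 1 gene of Gs and cAMP signalling, 1 of peptide processing, 0 of the regulators of Calca exon choice and 2 RNA polymerase III subunits passed. With exon-level medians, 1 of the 8 members that have a gene-level row was lower (2 of all 10 members were). The other counts were then 4 genes of Gs and cAMP signalling, 2 regulators and 3 subunits. With the replicate block, 3 genes of Gs and cAMP signalling, 4 of peptide processing, 1 Calca probeset, 1 Calcb probeset, 2 probesets of all members higher and 0 lower passed. The replicate numbers share no more than a number (correlations of deviations 0.0342, -0.00754 and 0.0212), and of these 3 arrays per group not every one correlated best with its own number. The block changed no call of a member at the gene level. With a variance trend, 14 probesets of the members were lower. For fits over all rows, with the block, with the trend or without 1 array, the share of all features past the threshold is not given. Counts from these fits, here and above, therefore cannot be set against such a share.

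With each array left out in turn, the count of members ran from 1 to 2 for higher and from 1 to 2 for lower, that of Gs and cAMP signalling from 3 to 7, peptide processing from 4 to 7, Calca probesets from 3 to 4, Calcb probesets from 2 to 5, probesets of all members from 5 to 9 for higher and from 0 to 4 for lower. The log2 fold change of Adm ran from -0.00489 (without SMN array 3; -0.00219 without posterior horn array 1) to 0.66, that of Crcp from -0.033 (without SMN array 2) to 0.38, and that of the dimmer Ramp1 row from -0.19 (without SMN array 1; -0.0772 without posterior horn array 1) to 0.27. The exon-level median of Ramp1 ran from -0.32 to 0.17 (without posterior horn array 2; 0.16 without SMN array 2). With exon-level medians Calcr gave -0.32. With the brightest probeset, chosen after seeing the data, Adm gave -0.20 and Iapp 0.14. All these values missed the threshold in both readings.

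The difference of Calca from Calcb ran from -1.01 to -0.82 with an array left out. It was -0.90 after quantile normalization and -0.89 with the block. Adding 16, a floor of 16 and median centring were not run for it, since its values are log2 and centring cancels within an array. Exon-level medians of Tra2b, Rbfox2 and Ackr3 had no value, and Adm and Iapp fell out with the dimmest 25% of rows. With 3 arrays per group, small differences in Adm and Iapp may have been missed, and the smallest that could be found was not tested. The intensities of Adm, Iapp and posterior horn Calcb were near or below the median of all rows, named or not. They were also below that of rows with 1 symbol.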

Other observations

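Genes on both sides of Calca and Calcb on chromosome 7 (order in the RefSeq annotation of GRCm38.p6: Pde3b, Cyp2r1, Calca, Calcb, Insc, Sox6) did not follow 1 direction at the gene level. Pde3b, a phosphodiesterase that breaks down cAMP, was at 987.7, 854.4 and 774 in SMN arrays and 363, 287.9 and 363.7 in posterior horn arrays, 2.58-fold higher in SMNs (limma adjusted p = 0.00476). Sox6, a transcription factor, was at 107.1, 90.2 and 131.9 in SMN arrays and 438.9, 274.7 and 450.5 in posterior horn arrays, 3.47-fold lower in SMNs (limma adjusted p = 0.00616). Cyp2r1 and Insc did not pass (limma adjusted p = 0.596 and 0.21). These genes were chosen for their position.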
